A study of Mus musculus with 17 samples.

Results

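Micrococcal nuclease (MNase) was titrated over 4 doses on mouse sperm chromatin whose digest was not separated into supernatant and pellet, and the promoters that gave nucleosome-sized fragments were followed from dose to dose. The 4 libraries, 1 each at 0.5, 2, 10 and 50 units, were chosen by their label as the non-separated fraction and are 4 of the 17 samples of the study, which maps how chromatin is packaged in sperm and in cultured stem cells of the mouse embryo. All came from sperm of 10-week-old C57/B6J mice, taken from the epididymis and vas deferens, allowed to swim up for 1 h, crosslinked with 1% formaldehyde for 15 min and digested for 5 min at 37 °C. They differ in the enzyme units alone, as far as the labels say. How many sperm went into each digest, how many mice were pooled and whether the digests share a sperm preparation is not stated in the sources used here. No undigested control enters, so the 0.5-unit library is the low end of the comparison and not a background.

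MNase cuts DNA between nucleosomes first and then trims and destroys what is less well protected, so the fragments of nucleosome size that a digest yields depend on how far it has gone. In mature sperm most histones have been replaced by protamines, small arginine-rich proteins that pack the DNA tightly, and a minority of nucleosomes remains. Promoters rich in the dinucleotide CpG belong mostly to housekeeping and developmental genes, and CpG-poor promoters mostly to tissue-restricted genes. Every sperm carries all autosomal promoters, so these DNA libraries hold no marker from which the purity of the cells could be read.

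The promoters themselves differ widely in composition, and 4 are shown to make the range visible, each as the 250 bases upstream of its start site, 5′ to 3′, with every CG in capitals. Among the named promoters with a sequence, Ndufa11 has the highest CpG observed to expected ratio and 4931408C20Rik, tied with Krtap4-16 at 0 CG, the lowest, and Ahdc1 and Vmn1r227 were added after their values had been seen. Sequences and their coordinates are from RefSeq, GRCm38.p6, whereas start-site positions given with values elsewhere are in mm9, the build of the deposited tables.
Ndufa11, a subunit of respiratory chain complex I, chr17:56717512-56717761, plus strand: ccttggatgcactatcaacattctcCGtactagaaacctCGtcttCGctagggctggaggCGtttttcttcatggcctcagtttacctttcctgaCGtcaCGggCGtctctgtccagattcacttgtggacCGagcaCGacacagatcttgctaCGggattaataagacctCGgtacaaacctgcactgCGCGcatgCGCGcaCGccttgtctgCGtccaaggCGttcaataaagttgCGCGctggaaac
Ahdc1, an AT-hook DNA-binding protein, chr4:133011256-133011505, plus strand: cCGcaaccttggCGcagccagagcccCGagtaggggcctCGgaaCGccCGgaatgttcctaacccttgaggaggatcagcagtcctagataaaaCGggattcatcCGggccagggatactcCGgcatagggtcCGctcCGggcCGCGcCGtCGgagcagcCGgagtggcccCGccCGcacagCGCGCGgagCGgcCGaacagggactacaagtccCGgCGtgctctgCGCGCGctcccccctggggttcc
Vmn1r227, a pheromone receptor, chr17:20734956-20735205, plus strand: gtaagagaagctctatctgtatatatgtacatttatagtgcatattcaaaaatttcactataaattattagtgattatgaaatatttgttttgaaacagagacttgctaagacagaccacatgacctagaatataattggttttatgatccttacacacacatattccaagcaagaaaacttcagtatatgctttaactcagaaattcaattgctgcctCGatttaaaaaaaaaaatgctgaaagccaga
4931408C20Rik, chr1:26687461-26687710, minus strand: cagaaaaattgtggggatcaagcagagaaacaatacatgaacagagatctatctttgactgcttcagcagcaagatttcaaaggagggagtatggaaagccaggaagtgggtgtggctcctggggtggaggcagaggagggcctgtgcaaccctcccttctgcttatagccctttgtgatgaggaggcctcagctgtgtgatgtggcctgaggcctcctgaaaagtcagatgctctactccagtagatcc
The stretches hold 20, 28, 1 and 0 CG, in that order, at a GC content of 53.2%, 69.2%, 29.6% and 51.2%. A CG, searched as these 2 letters, which read the same on both strands, was present in 94.7% of 13316 matched promoters of 300 bases.

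The tables gave 41419, 39165, 31027 and 29492 fragments around 24084 distinct start sites at 0.5, 2, 10 and 50 units. Of these start sites 6105, or 25.3%, have another within 4000 bp. Their windows overlap, so a fragment can be counted at several start sites. Within 1000 bp this is 0.812, 0.813, 0.659 and 0.678 fragments per start site, so single promoters can seldom be read and most results are pooled. Of the start sites, 5.80% had no signal in any library, and the Spearman correlation between doses across start sites was 0.158 to 0.217. With 1 library per dose no value has a replicate. Trends are given as a slope, the change in log2 value per doubling of units, and an exact permutation over the 24 orderings of the doses cannot go below a two-sided p of 0.083, so no trend can pass a threshold of 0.05. Intervals are 95% and cover the counting of fragments alone, not mice or digests, and the reads carry no molecular identifiers. They treat a fragment counted at several start sites as separate fragments, so they can be too narrow, above all for lists of clustered genes.

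At 10576 high-CpG start sites a gap in the fragments at the lowest dose gave way to a broad hump at the highest. Signal over the 300 bp downstream, relative to flanks 1000 to 2000 bp away on each side, was 0.560 at 0.5 units (0.522 to 0.600), 0.987 at 2, 1.11 at 10 and 1.88 at 50 units (1.78 to 1.98). Its slope of 0.242 (0.225 to 0.260, exact two-sided p = 0.083) was the steepest of the 6 class ratios. When fragments were placed by their centres, 13 of the 20 windows of 100 bp within 1000 bp of the start site had an interval below the flanks at 0.5 units, and none had one above. At 50 units 0 windows lay below and 14 above, all between 500 bp upstream and 900 bp downstream. The lowest point at 0.5 units, 0.492 of the flanks, was centred 50 bp downstream, and the highest point at 50 units, 2.12, 190 bp downstream. The 2 middle doses lay between, with highest points of 1.10 and 1.25 at 150 and 130 bp. At 50 units the windows 100 to 200 bp upstream and 100 to 200 bp downstream stood at 1.33 (1.20 to 1.47) and 2.11 (1.95 to 2.29), so the hump is larger on the transcribed side.

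**Figure D1:**
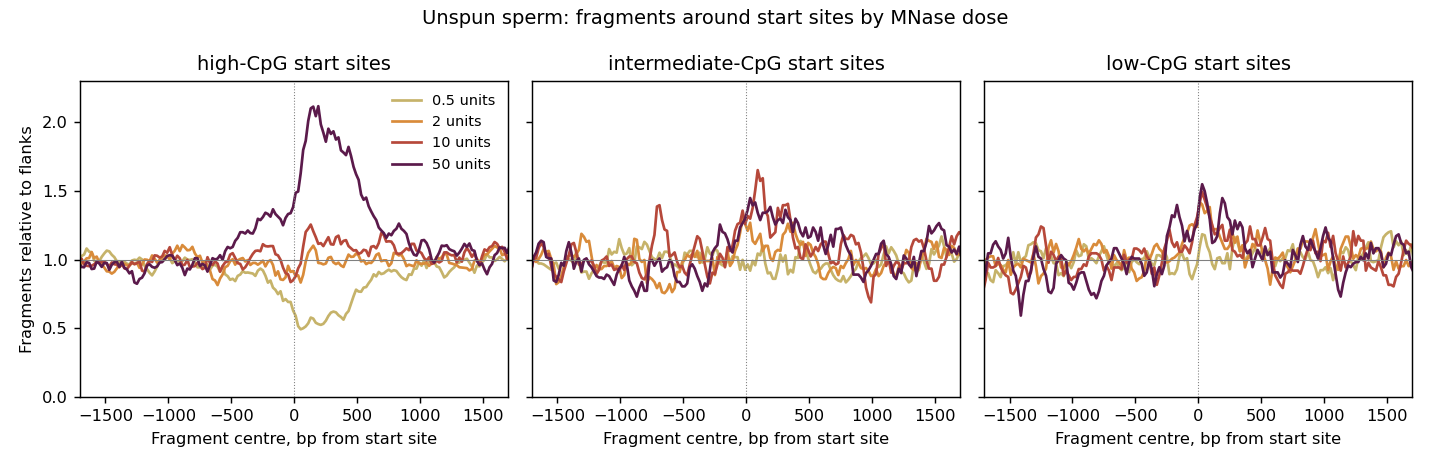
Fragment centres in 20 bp bins, smoothed over 5 bins and divided by the flanks (y axis), against distance from the start site in bp (x axis), for 3 CpG classes and 4 doses; the outer ends, where fragments are cut by the window, are not drawn. The high-CpG curve dips to 0.492 at 0.5 units and reaches 2.12 at 50 units, while low-CpG curves peak within 30 bp of the start site at every dose.

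Start sites with fewer CpG had no gap at the lowest dose. At 2833 low-CpG start sites the downstream signal was 1.03, 1.21, 1.24 and 1.32 of the flanks, with the highest point 10 to 30 bp downstream at each dose (1.18, 1.42, 1.49 and 1.55). At 3073 intermediate-CpG start sites it was 0.964, 1.13, 1.38 and 1.32. None of the 20 windows had an interval below the flanks at 0.5 units in either class. High-CpG start sites held 59.7%, 64.5%, 65.4% and 69.6% of the fragments at classed start sites, against 64.2% of the start sites themselves. Intermediate-CpG start sites held 21%, 18.9%, 19.1% and 16.5%, and low-CpG start sites 19.3%, 16.5%, 15.6% and 13.9%. Without the 0.5-unit library the downstream slope at low-CpG start sites was 0.03, with an interval that holds 0 (-0.02 to 0.08).

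**Figure D2:**
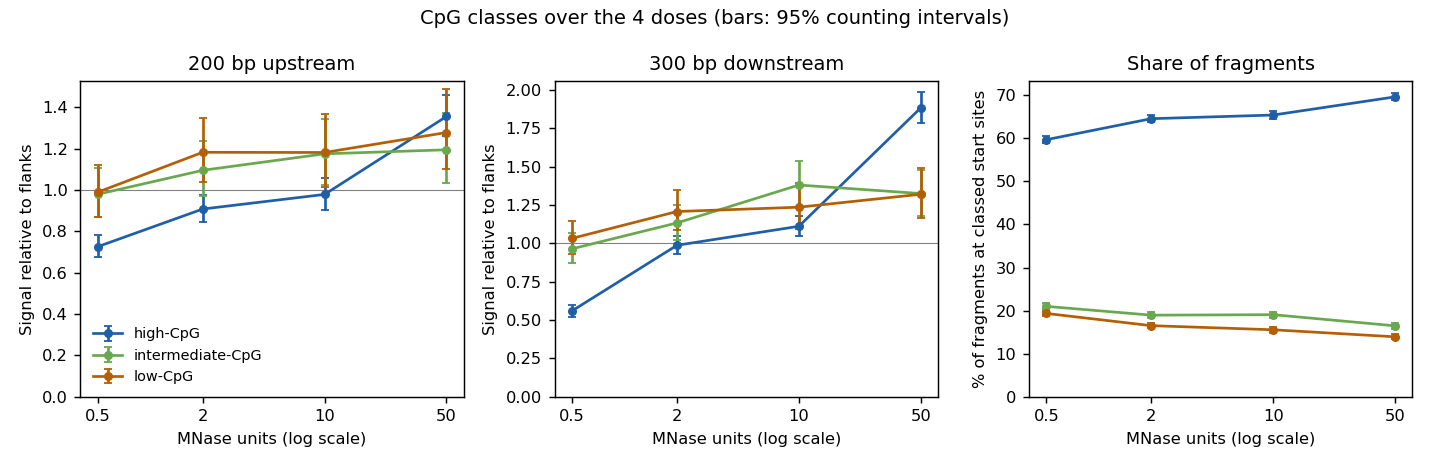
Signal relative to flanks 200 bp upstream and 300 bp downstream of the start site, and share of fragments at classed start sites in percent, against MNase units on a log axis, with 95% counting intervals. The high-CpG class is lowest of the 3 at 0.5 units and highest at 50 units in both ratios.

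GC content parted the promoters further, including promoters of the same CpG class. Promoter sequence could be matched to 13316 start sites, or 55.3% of them, so what follows describes the matched start sites and is no check on all. In 5 equal groups by GC content, the group of highest GC (median 70.7%) held 18.6%, 21.7%, 22.3% and 26.3% of matched fragments at rising dose, and the group of lowest GC (median 39.7%) 17.3%, 12.7%, 11.9% and 11.2%. Within the high-CpG class alone, the 1 of 3 equal groups with the highest GC went from 30.6% to 36.6% (slope 0.035, 0.025 to 0.046) and the group with the lowest GC from 35.7% to 29.9% (slope -0.032, -0.044 to -0.021). In 5 equal groups of all matched promoters by CpG observed to expected ratio, share slopes ran from -0.075 in the lowest group to 0.040 in the highest. Within the high-CpG class, the 3 groups by this ratio had share slopes of -0.0018, -0.0039 and 0.0060, and each interval holds 0. Their downstream ratios, from lowest to highest group, were 0.637, 0.566 and 0.515 at 0.5 units. At 10 units they were 1.27, 1.25 and 0.949, and at 50 units 1.96, 1.99 and 2.08. The downstream ratios of the 3 GC groups of this class were far apart at 0.5 units, at 0.756, 0.598 and 0.373 from lowest to highest GC, and close at 50 units, at 2.07, 2.05 and 1.90 with overlapping intervals.

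**Figure D3:**
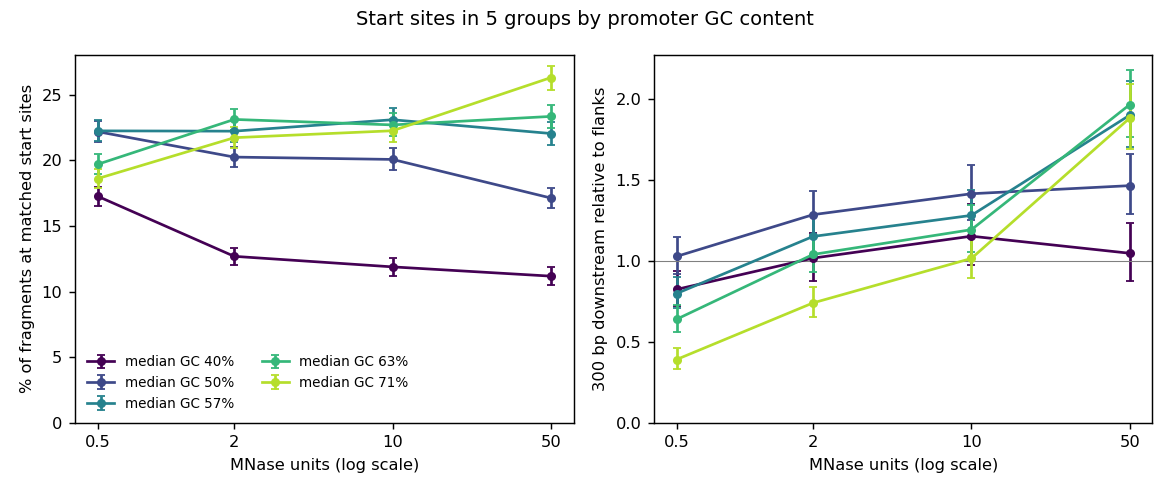
Share of fragments at matched start sites in percent (left) and signal over the 300 bp downstream relative to flanks (right) against MNase units on a log axis, for 5 groups by promoter GC content, with 95% counting intervals. The group of highest GC starts at 0.391 of the flanks and ends at 1.88.

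Of 33 gene lists, those of developmental transcription factors took a larger share of fragments at higher doses, and those of several tissue-restricted families a smaller one. The interval of the slope lay above 0 for 2 lists, below 0 for 7 and held 0 for 24. Homeodomain and Pax regulators outside the Hox clusters, which specify cell identity in the embryo, were the only list whose level was higher at each dose than at the one before. Per start site they held 0.745, 0.995, 1.45 and 1.64 times the average at 0.5, 2, 10 and 50 units, from 66, 88.2, 104.1 and 121.1 fragments (slope 0.177, 0.116 to 0.238, exact two-sided p = 0.083). Over all alternatives the slope was 0.144 to 0.222, and its interval lay above 0 in each. Gata, Sox, Fox, T-box and bHLH regulators held 0.937, 1.29, 1.27 and 1.41 times the average (slope 0.077, 0.024 to 0.131), but 0.029 (-0.046 to 0.104) without the 0.5-unit library. The Hox clusters, whose genes set positions along the body axis, held 1.04, 0.837, 1.66 and 1.3 times the average, and their interval held 0 (-0.006 to 0.185).

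The homeodomain and Pax list stood higher at 50 units than at 0.5 units both near its start sites and in its flanks. Whether the gain differs between these zones was not tested. In its flanks the level was 0.969, 1.16 and 1.20 times the average of all flanks at 0.5, 2 and 10 units, with overlapping intervals, and 1.75 at 50 units. Within 500 bp of its start sites the level was 0.478, 0.902, 1.34 and 1.45 times the average there. The ratio of its start sites (200 bp upstream to 300 bp downstream) to its own flanks was 0.298 (0.114 to 0.624) at 0.5 units and 0.881 (0.537 to 1.40) at 50 units, from 7 and 23 fragments. High-CpG start sites on no list stood at 0.626 (0.592 to 0.661) and 1.70 (1.62 to 1.78). Both sets were higher at 50 units than at 0.5 units, and the homeodomain and Pax list was the lower of the 2 at each dose. The intervals of the 2 sets overlap at 0.5 units and do not overlap at 50 units. Whether the sets differ in their change with dose was not tested. Hox start sites gave 0.728 and 0.789 of their own flanks at these doses, with wide intervals (0.230 to 1.60 and 0.308 to 1.89). Meiotic recombination and synapsis genes, which act in the germ line before sperm form, were at 0.414 (0.104 to 1.11) and 3.96 (1.49 to 10.7), from 4 and 10 fragments, and at 1.34 and 1.47 at the 2 middle doses. Their flanks went from 39.5 fragments at 0.5 units to 10.0 at 50 units, or from 1.28 to 0.538 times the average of all flanks, while within 500 bp the level was 0.767, 1.42, 1.46 and 1.23 with overlapping intervals. Ribosomal protein genes were at 0.699 and 1.93, and nuclear genes of the mitochondrial ribosome and respiratory chain at 0.543 and 1.44, each with an interval for 50 units that overlaps that of the high-CpG start sites on no list.

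Olfactory and vomeronasal receptor promoters held a smaller share at the higher doses, and those of olfactory receptors stayed close to their own flanks. Olfactory receptors, which detect odorants in the nose, held 0.891 times the average per start site at 0.5 units and 0.569, 0.550 and 0.575 at the next 3 doses, from 793, 507, 397 and 427 fragments at 1096 start sites. In this window of 1000 bp the difference lies between the lowest dose and the rest: without the 0.5-unit library the slope was 0.0030 in place of -0.085. By zone the higher doses differed. Within 500 bp the level was 0.972, 0.594, 0.516 and 0.485 times the average there, and in the flanks 0.864, 0.592, 0.560 and 0.722. The flank intervals at 10 units (0.506 to 0.618) and 50 units (0.657 to 0.792) do not overlap. Relative to their own flanks these start sites were at 0.920, 0.927, 0.971 and 0.966. In a set of 2727 matched start sites of low GC content, 860 were olfactory receptors. This set is larger than the lowest of the 5 groups by GC content described above, so it is not the same group. The olfactory receptors held 30.8%, 27%, 28.8% and 30.4% of the fragments in this set (slope 0.0022, -0.021 to 0.026). The other 1867 start sites of the set had a slope of -0.088 (-0.106 to -0.070) in their share of all matched fragments. Vomeronasal type 1 receptors, which detect pheromones, held 0.307, 0.248, 0.213 and 0.136 times the average, and type 2 receptors 0.303, 0.158, 0.242 and 0.096. The type 1 difference lay mostly in the flanks, at 0.453, 0.319, 0.276 and 0.226 times the average there, while within 500 bp of the start site the level was 0.223, 0.232, 0.273 and 0.166, with overlapping intervals. With a window of 200 bp the type 1 slope was 0.013 (-0.182 to 0.207) in place of -0.169, and -0.088 (-0.215 to 0.040) relative to low-CpG signal. Taste and trace amine receptors held 0.952, 0.673, 0.658 and 0.615 times the average, with an interval that holds 0 (slope -0.085, -0.192 to 0.023). Of the type 1 start sites 50.6% had no signal in any library, and of the type 2 start sites 43.7%. How reads that map to several genes of these families were treated, which could bear on both levels, was not tested. Without the 50-unit library the slopes were -0.121 (-0.263 to 0.021) and -0.066 (-0.254 to 0.122), so both calls rest on it, and the type 2 slope was -0.156 (-0.417 to 0.105) without the 0.5-unit library.

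Of the remaining lists whose interval lay below 0, each lost that in at least 1 alternative. Keratin-associated proteins, which crosslink keratin in hair, held 1.17, 0.796, 0.451 and 0.523 times the average (slope -0.192), but -0.130 (-0.305 to 0.044) without the 0.5-unit library and -0.320 without the 50-unit library. Cytochrome P450 genes, which oxidise drugs and steroids, held 1.13, 0.774, 0.886 and 0.701. Their slope of -0.083 was -0.031 (-0.145 to 0.083) without the 0.5-unit library and -0.078 (-0.185 to 0.029) without the 50-unit library. Sperm flagellum and energy genes held 1.90, 1.20, 0.846 and 1.16 times the average, the highest level of any list at 0.5 units. Their slope of -0.115 was -0.0096 (-0.163 to 0.144) without the 0.5-unit library, -0.090 (-0.189 to 0.0098) without the 10-unit library and -0.269 without the 50-unit library. MicroRNA genes held 1.01, 0.949, 0.927 and 0.861 (slope -0.033), and the interval held 0 without the 0.5-unit library and without the 50-unit library. Protamine and transition protein genes, listed together with H1f7 and Hils1, gave 7 start sites and a slope of 0.055 (-0.211 to 0.320). Their fragments were too few to show a difference at this depth. Genes typical of epididymal epithelium and of leukocytes had slopes of -0.079 (-0.190 to 0.032) and -0.063 (-0.191 to 0.066).

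**Figure D4:**
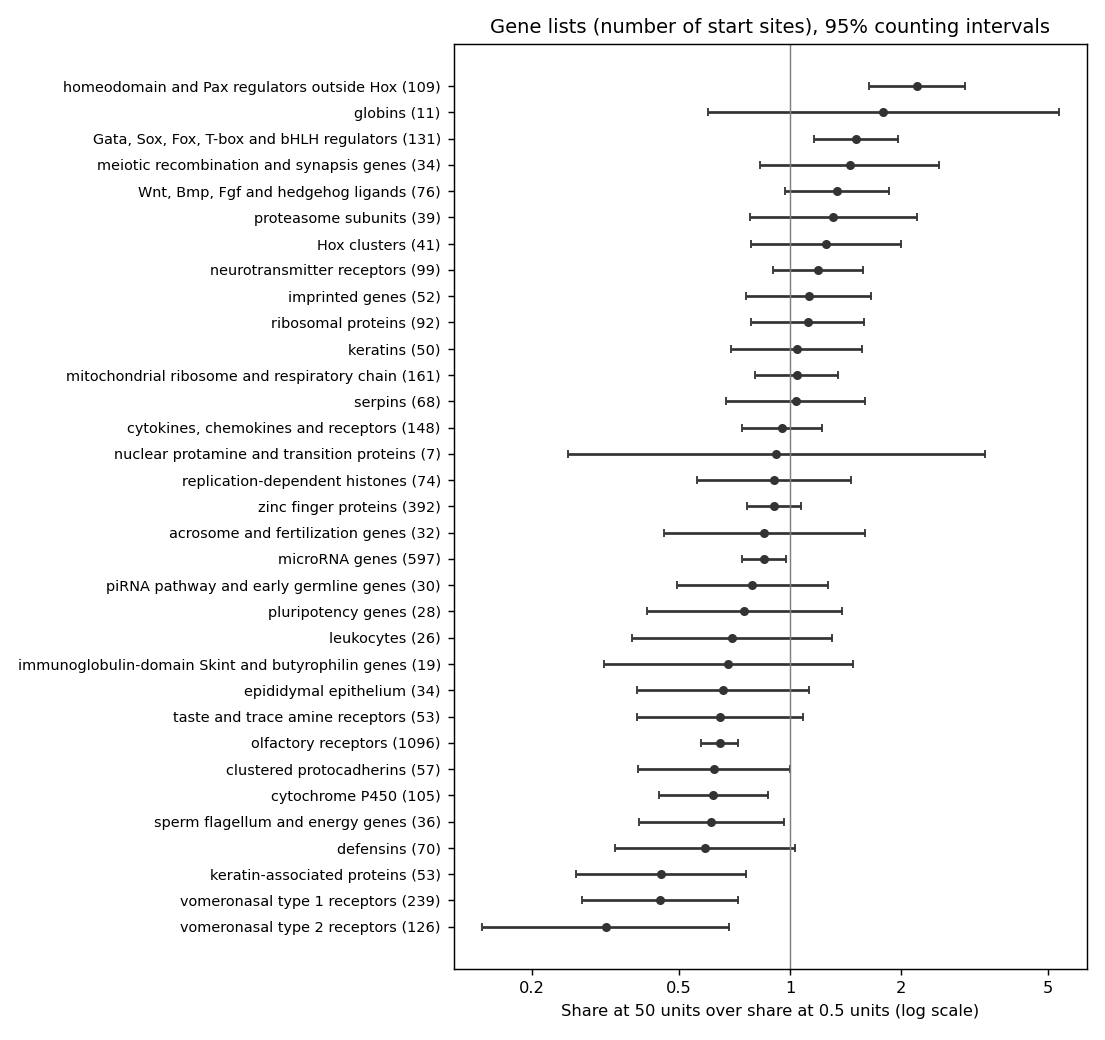
Share of fragments at 50 units divided by the share at 0.5 units, on a log axis, for 33 gene lists with their number of start sites in parentheses and 95% counting intervals. Homeodomain and Pax regulators stand highest, at 2.20, and vomeronasal type 2 receptors lowest, at 0.316.

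The share of the X chromosome differed more with dose than that of any autosome. X start sites are 4.62% of all, and held 2.04% of fragments at 0.5 units, 1.84% at 2, 1.59% at 10 and 1.19% at 50 units, lower at each step (slope -0.115, -0.141 to -0.090, exact two-sided p = 0.083). The slopes of the 19 autosomes lay between -0.017 and 0.024, the highest on chromosome 17. That chromosome held 4.78% of fragments at 0.5 units and 5.40% at 50 units. Included in these are 0.159% and 0.819% around 1 transcript, NR_030494, described below. The Y, with 14 start sites, held 0.0125% at 0.5 units and 0.00678% at 50 units, a slope of -0.105 whose interval holds 0 (-0.437 to 0.228). Sperm carry either an X or a Y, so in a sperm population the X is present at a lower dose than an autosome, and per start site it held 0.430 (0.401 to 0.460) times the autosomal density at 0.5 units but 0.248 (0.222 to 0.275) at 50 units. At 307 high-CpG start sites on the X the same density was 0.525, 0.477, 0.464 and 0.276, and at 91 low-CpG start sites 0.424, 0.450, 0.338 and 0.377, where the interval of the slope holds 0 (-0.121 to 0.038). Mean GC content of matched promoters was 53.5% on the X (579 start sites), next to 53.6% on chromosome 6 and 52.8% on chromosome 7. The slopes of chromosomes 6 and 7 were -0.013 and -0.0099. Whether promoter GC content has a part in the X slope was not tested. At high-CpG start sites of at least 60% GC, the X stood at 0.497 of the autosomes at 0.5 units and 0.258 at 50 units (slope -0.136, -0.211 to -0.060). At 50 to 60% GC it stood at 0.542 and 0.259 (slope -0.155, -0.244 to -0.066), but at the 22 X start sites under 50% GC it was 0.525, 0.441, 0.588 and 0.469 over the 4 doses (slope -0.0024, -0.150 to 0.145). Relative to its own flanks the high-CpG downstream signal on the X was 0.544 (0.296 to 0.953) at 0.5 units and 2.48 (1.28 to 4.38) at 50 units, against 0.560 and 1.88 on the autosomes, whose values lie within the X intervals. These X ratios rest on 13.8 and 16.1 fragments over 307 start sites, where 10269 autosomal start sites gave 862 and 1755, so the level itself was lower on the X there too. Across the alternatives the slope of the X share was -0.143 to -0.083, and each interval lay below 0. The X was singled out after its values were seen.

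**Figure D5:**
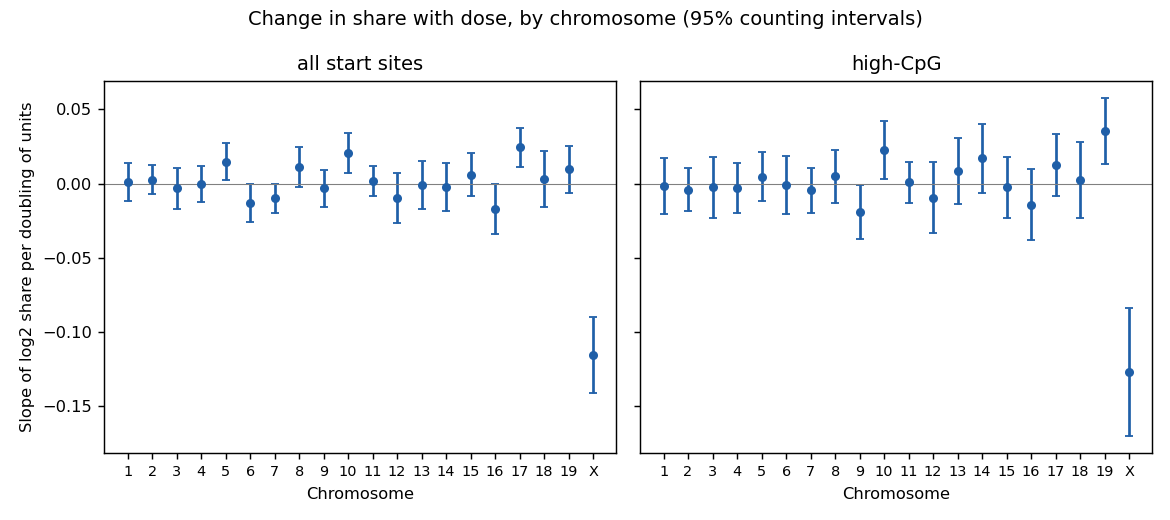
Slope of each chromosome's log2 share of fragments per doubling of MNase units (y axis), over all start sites (left) and high-CpG start sites (right), with 95% counting intervals. The X lies at -0.115 and -0.127, below every autosome.

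A single start site on chromosome 17 showed the clearest dose series. Around the transcript NR_030494, for which the gene table holds no symbol (chr17:39981080, mm9), 65.9, 123.5, 138.9 and 241.5 fragments were counted, or 0.159% (0.123 to 0.203), 0.315% (0.263 to 0.377), 0.448% (0.377 to 0.529) and 0.819% (0.721 to 0.930) of each library, a 5.15-fold difference between the ends. The intervals overlap only between 2 and 10 units. This stretch of mm9 is known to hold a copy of the large ribosomal RNA precursor gene, which the genome carries in many tandem copies, and whether the count stands for many copies was not tested. Signal between 2000 and 1000 bp upstream was 0.955 fragments at 0.5 units and 0 at each other dose. Sfi1, which encodes a centrosome protein (chr11:3093466), had the next most fragments, with 46, 54, 38 and 29, or 0.110%, 0.137%, 0.123% and 0.0969% of the library, and all 4 intervals overlap. 4931408C20Rik (chr1:26744305), next after it by fragments, had 13, 10, 10 and 2.

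Single start sites were compared by their share within 2000 bp at 10 and 50 units over that at 0.5 and 2 units. A pseudocount of 1 fragment was added to each side. Among 17357 start sites with at least 4 fragments, 2627 (15.1%) were past 2-fold higher and 2102 (12.1%) past 2-fold lower, with no test. Of 41 Hox start sites 35 had that many, and 13 of these were past 2-fold higher and 2 lower, with a median log2 ratio of 0.66 against 0.07 over all. Hox genes are clustered, so these start sites can share fragments. Within 500 bp the Hox level was 1.07, 0.848, 1.14 and 0.878 times the average there at rising dose. In the flanks it was 0.960, 1.26, 1.55 and 1.51, and the intervals overlap in each zone. Of the homeodomain and Pax start sites 96 had that many and 13 did not, with 27 higher, 4 lower and a median of 0.64. Of 53 keratin-associated start sites 33 had that many, with 2 higher, 12 lower and a median of -0.33. For vomeronasal type 1 receptors 45 of 239 had that many, with 3 higher, 12 lower and a median of -0.59. Members enter these counts by their own fragments, so the counts describe the better covered members.

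The start sites at the 2 ends of the ranking had 10 fragments or more in all, were taken from 2292, and rest on few fragments each. Ahdc1 (chr4:132567420) led the higher side with 1, 0, 4 and 9 fragments, and a log2 ratio without a pseudocount of 4.09 (exact interval 1.38 to 9.52). Mir3075, Pcdhga3 (a clustered protocadherin), Slc25a34 (a mitochondrial carrier), Slurp2 and NM_001081434 were also among the 10 highest. So were Dnaaf2, which helps to assemble the dynein arms of cilia and flagella, and 9330151L19Rik, whose window overlaps its own. This pair shares fragments and does not count as 2 observations. Dlgap1, a scaffold protein of synapses, led the lower side with 4, 7, 0 and 0 fragments, followed by Jsrp1 with 8, 3, 0 and 0 and Rrp15, which acts in ribosomal RNA processing, with 3, 7, 0 and 0. Npc1l1 (intestinal cholesterol uptake), Ubqlnl, Ceacam-ps1, Ano5, Slc29a4, Best1 (a chloride channel) and Zfp691 made up the rest. The intervals are not adjusted for the choice of extremes.

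The best covered members of the lists showed how thin single promoters are. Hoxb13 had 5, 8, 3 and 2 fragments and Phox2a, a homeodomain factor of autonomic neurons, 6, 5, 1 and 5. The intervals of their log2 ratios of higher to lower doses hold 0 (-2.81 to 0.61 and -2.18 to 1.10). Counts this small cannot show whether either follows its list. Hes5, a Notch target, had 2, 7, 4 and 3, and Spo11, which makes the breaks of meiotic recombination, 1, 1, 6 and 2. Olfr455 had 6, 2, 5 and 0, Vmn1r227 5, 4, 2 and 0, and Vmn2r56 3, 3, 2 and 1. Krtap4-16 had 7, 2, 0 and 2, Cyp2j9 7, 4, 1 and 3, and Odf3, a protein of the outer dense fibres of the sperm tail, 4, 4, 4 and 1. Ndufa11 had 3, 7, 1 and 2. Prm1, protamine 1, had 5, 3, 3 and 1, Lcn2 3, 3, 6 and 1, and Cd3g 5, 5, 1 and 2.

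The fragments themselves differed slightly in size. An isolated fragment covered 13.57, 13.58, 13.61 and 13.64 bins of 20 bp, and 44%, 42.9%, 40.8% and 38.7% of isolated fragments covered 13 bins or fewer. As each fragment appears drawn as its 2 reads extended to 200 bp from both ends, a wider run stands for a shorter fragment, with implied means of 148.6, 148.4, 147.8 and 147.2 bp. The share of fragments stacked on another was 8.22%, 7.04%, 5.20% and 4.78%. Whether fragment size, stacking or depth, which was lower at 10 and 50 units, has a part in the results above was not tested, beyond counting stacked fragments once, which gave a high-CpG downstream slope of 0.246 and an X slope of -0.113.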

How the data were processed

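In 4 MNase libraries of sperm, fragments between 135 and 165 bp were analysed, the range in the table names. The submitters' processing notes name Bowtie (with no version), SAMtools 0.1.16 and the build mm9. How duplicates and reads with several map positions were treated: not stated in the sources used here. The authors deposited a signal, a whole-number pileup in 200 bins of 20 bp over 2000 bp to each side of 28015 start sites, not scaled to depth. CpG classes came from the deposited class column of another table of the study.

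Repeated start sites were taken once. Pileup was divided by 22, the sum an isolated fragment gives, to yield fragments. Shares used 1000 bp to each side (2000 bp for chromosomes and single start sites) and have exact binomial intervals; slopes have intervals by the delta method on counts. Symbols came from a RefSeq gene table (23565 start sites matched), and histone genes were matched by synonym. Python 3.11.15, numpy 2.4.6, pandas 2.3.3 and scipy 1.17.1 were used, and the calculation was tested on simulated data.

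Named promoters were the 10 highest and 10 lowest by log2 ratio of 10 and 50 to 0.5 and 2 units (pseudocount 1 fragment, at least 10 fragments, 1 per gene), the 3 with most fragments, and the best covered member of lists described; a few of these are not reported here. The members and lists were chosen with earlier results of these data known. Start-site ratios over 200 bp upstream to 300 bp downstream, levels by zone, GC groups and the chromosome comparison were added after seeing the data.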

Additional observations from a re-analysis of the deposited data

How the results depend on the processing

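The 9 class results and the X share kept their direction in all 129 alternatives, and the interval came to hold 0 in 7: low-CpG upstream (isolated start sites, flanks 1500 to 2000 bp, without the 0.5-unit or the 50-unit library), low-CpG downstream (without the 0.5-unit library) and intermediate-CpG upstream (without the 0.5-unit library, whole span as flanks). The number of lists whose interval excluded 0 was 9, but 5 with a window of 200 bp and 3 without the 0.5-unit library. Lists carry no test, so a list was called reversed only where its interval had excluded 0, a rule set after the values were seen. This held for vomeronasal type 1 receptors at 200 bp (0.013) and olfactory receptors without the 0.5-unit library (0.0030). By sign alone 37 of 428 list alternatives turned, 2 of them these, and in 26 alternatives 1 of the 9 lists no longer had an interval that excludes 0. Promoters past 2-fold higher numbered 748 with at least 8 fragments and 1288 within 1000 bp, against 2627, and past 2-fold lower 582 and 1089, against 2102. Counting stacked fragments once, 1 start site per gene, low-CpG signal as denominator and the whole span as flanks were chosen after seeing the data. No paired analysis was possible because each dose is 1 library: all carry replicate number 1, so the doses share only 1 number. Depth, at under 1 fragment per start site within 1000 bp, limits single promoters and lists of few start sites.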
